A study of Mus musculus with 10 samples.

Results

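Integrins and laminins, the receptors and matrix proteins by which uterine cells hold on to basement membranes and to each other, were followed as a set of 34 genes out of the 45706 in the count table. The set was listed by symbol, with no measured value used to pick a member, but earlier results of these data were known when it was chosen. It comprised 24 integrin chains, 9 laminin chains and *Spp1*, which encodes the integrin ligand osteopontin. Each symbol was matched to 1 Ensembl identifier, and all 34 were among the 25146 genes tested. RNA was sequenced from whole uterine tissue of 10 female mice at gestation day (GD) 3.5, shortly before an embryo would implant. The mice were 12 to 15 weeks old, and part of each uterus was taken for RNA. The 5 control uteri carried floxed *Arid1a* alleles and no Cre (*Arid1a* f/f), and the 5 knockout uteri carried the same floxed alleles with an iCre inserted at the lactoferrin locus (*Ltf* iCre/+ *Arid1a* f/f). *Arid1a* encodes a subunit of the SWI/SNF (BAF) chromatin remodeling complex. Both groups were of mixed strain (129S1/SvImJ, 129P2/OlaHsd, 129S6/SvEvTac and C57BL/6), and because only the knockouts carried Cre, an effect of Cre or of the altered *Ltf* allele cannot be told apart from that of the deletion.

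The *Ltf* promoter drives Cre in the endometrial epithelium of the mature mouse, and *Ltf* is also a gene of neutrophils and other myeloid cells, so deletion in those cells cannot be told apart from deletion in the epithelium. *Arid1a* itself lay between 192 and 251 CPM (counts scaled to the size of each library) in controls and between 165 and 208 CPM in knockouts. Its log2 fold change was -0.20 (SE 0.09, adjusted p = 0.201 by edgeR). Whole-uterus RNA also holds stroma, muscle and vessels, where this Cre is not known to act, and a gene count can include transcript that lacks only the floxed exons. The libraries held 59296537 to 72702411 counts, and the member with the lowest count in any library, *Lama1*, still had 90. Summed epithelium markers were higher in every knockout (1238 to 2636 CPM) than in any control (843 to 1125 CPM), and summed endothelium markers were lower in every knockout (427 to 582 CPM) than in any control (844 to 1142 CPM). Knockout 5 stood apart: its 8 neutrophil markers summed to 873 CPM, against 6.18 to 24.7 CPM in the other libraries. In RNA from whole uterine tissue, fewer cells of a type and less RNA per cell cannot be told apart, and this holds for every comparison that follows.

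Integrins are receptors made of 1 alpha and 1 beta chain that span the plasma membrane, bind matrix proteins or proteins on other cells outside and couple to the actin or keratin cytoskeleton inside. Laminins are cross-shaped secreted trimers of an alpha, a beta and a gamma chain that assemble into the sheet of the basement membrane, on which epithelium, muscle, nerve and vessel wall rest. The alpha chain largely sets where a laminin is found and which receptor binds it. In the uterus before implantation, integrins on the luminal epithelium and osteopontin in the lumen are known as candidates in the attachment of the embryo, and leukocyte integrins carry white cells out of the blood and into the endometrium.

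Of the 34 genes, 5 were higher and 6 were lower in knockouts at an adjusted p under 0.05 (edgeR quasi-likelihood test, Benjamini-Hochberg adjustment over all 25146 genes), which is 32.4% of the set, and 23 did not pass. Among all genes tested, 9.70% passed, 5.19% upward and 4.51% downward. The genes that rose were *Lamb3*, *Itgb6*, *Itgb2*, *Itgb7* and *Spp1*, and those that fell were *Lama2*, *Lama4*, *Lamb1*, *Lamc1*, *Itga1* and *Itga9*. The laminins held 5 of these 11 calls, in 9 chains, whereas the 24 integrin chains together held 5, or 20.8%. The groups did not overlap for 3 members upward and 4 downward, against 5.53% of all genes tested upward, 5.16% downward and 10.7% in either direction. DESeq2 called 7 members higher, beside 9.16% of the genes it tested, and 7 lower, beside 8.49%, in all 14 of 34 beside 17.6%. It gave no adjusted p for *Itga8* and *Itgam*, and its shares are over the 23017 genes that had one. The median log2 fold change of the set was 0.11, next to 0.03 over all genes tested.

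**Figure D1:**
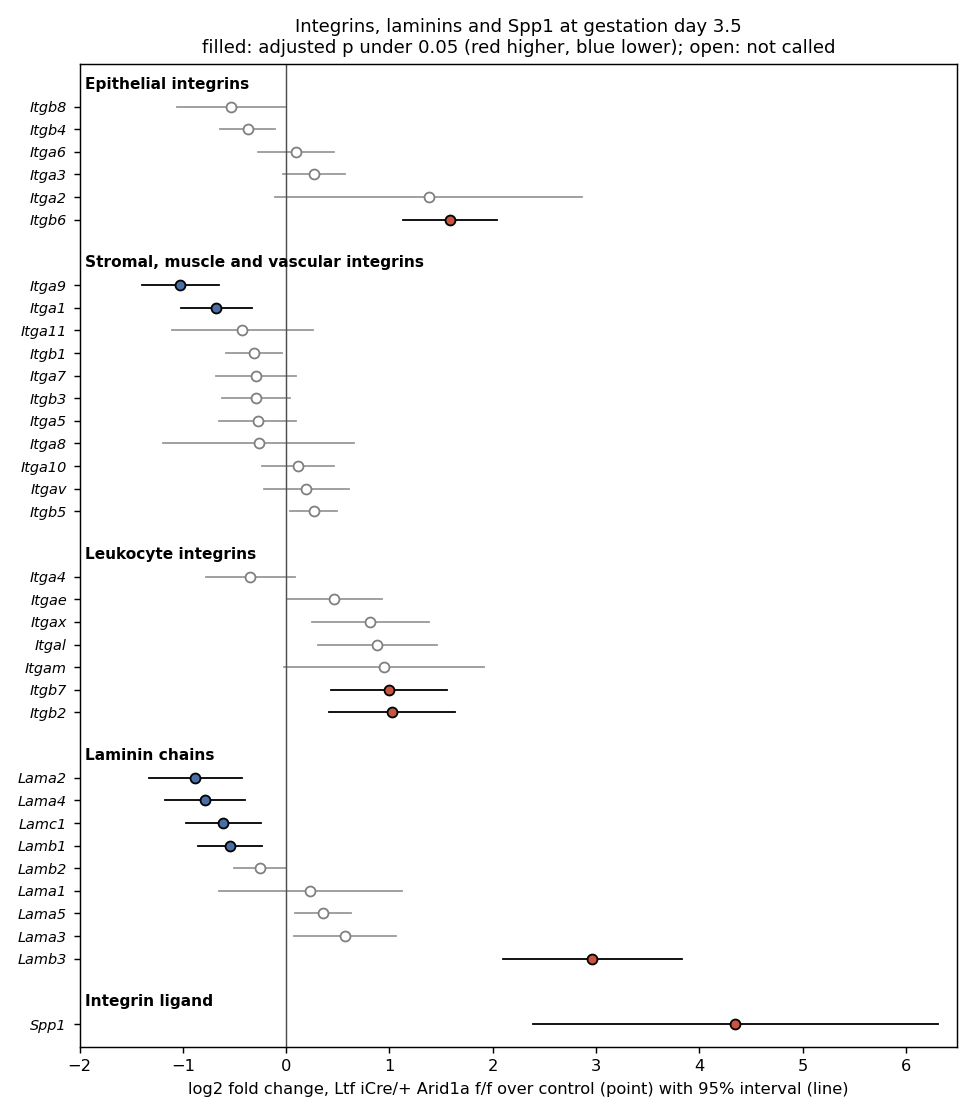
Log2 fold change of each of the 34 genes, knockout over control (horizontal axis), with its 95% interval, grouped by the cell type or family in which the gene is best known. Filled points passed the threshold: 1 of 6 epithelial integrins, 2 of 11 stromal, muscle and vascular integrins, 2 of 7 leukocyte integrins, 5 of 9 laminin chains and *Spp1*.

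The promoter windows of 4 of these genes are printed here because the beta laminins *Lamb3* and *Lamb1* moved in opposite directions and *Itgb6* and *Spp1* were the other members that rose with no overlap between groups. Each window runs from 250 bases before to 50 bases from a RefSeq transcription start (GRCm38.p6), 5′ to 3′ on the gene's strand. Capitals mark matches to 3 motifs searched on both strands: AP-1 (TGANTCA), the GC box (GGGCGG) and the TATA box (TATAAA). The windows are chr1:193301744-193302043 on the plus strand for *Lamb3*, chr12:31265043-31265342 on the plus strand for *Lamb1*, chr2:60722554-60722853 on the minus strand for *Itgb6* and chr5:104434861-104435160 on the plus strand for *Spp1*.
Lamb3: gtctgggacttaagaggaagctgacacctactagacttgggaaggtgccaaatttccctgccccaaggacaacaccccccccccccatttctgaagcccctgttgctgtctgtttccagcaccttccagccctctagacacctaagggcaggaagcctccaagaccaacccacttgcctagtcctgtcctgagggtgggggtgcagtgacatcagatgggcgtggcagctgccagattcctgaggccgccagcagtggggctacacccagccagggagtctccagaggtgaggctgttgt
Lamb1: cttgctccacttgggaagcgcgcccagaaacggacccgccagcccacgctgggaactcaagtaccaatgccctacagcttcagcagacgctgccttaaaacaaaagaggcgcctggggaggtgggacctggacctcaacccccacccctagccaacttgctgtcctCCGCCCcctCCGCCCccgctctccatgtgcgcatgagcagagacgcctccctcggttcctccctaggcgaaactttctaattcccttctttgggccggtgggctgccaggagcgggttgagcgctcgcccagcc
Itgb6: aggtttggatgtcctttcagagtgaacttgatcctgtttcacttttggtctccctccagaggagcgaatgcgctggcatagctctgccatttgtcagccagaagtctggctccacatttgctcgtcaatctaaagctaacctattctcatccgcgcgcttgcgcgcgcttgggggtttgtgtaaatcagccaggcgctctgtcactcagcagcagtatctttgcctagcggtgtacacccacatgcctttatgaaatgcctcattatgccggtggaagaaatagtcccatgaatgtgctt
Spp1: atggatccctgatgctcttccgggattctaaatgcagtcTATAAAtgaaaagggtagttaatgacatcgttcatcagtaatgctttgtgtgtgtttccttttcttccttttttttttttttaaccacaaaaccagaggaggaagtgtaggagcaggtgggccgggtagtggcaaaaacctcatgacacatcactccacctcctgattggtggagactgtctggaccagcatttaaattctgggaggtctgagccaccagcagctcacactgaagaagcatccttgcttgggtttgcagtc

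The *Lamb1* window held 2 GC boxes close together on the reverse strand, the *Spp1* window held 1 TATA box at position -211 counted from the start, and neither the *Lamb3* nor the *Itgb6* window held any of the 3 motifs. RefSeq windows were found for 23 of the 34 members, 27 windows in all. A GC box stood in 12 of the 27, next to 35.7% of all 32851 windows, AP-1 in 3, next to 7.81%, and the TATA box in 1, next to 13.6%. By call, a GC box stood in 0 of 7 windows of members that rose, 2 of 4 windows of members that fell and 10 of 16 windows of the rest. Those 7 windows are not independent: *Lamb3*, *Itgb6* and *Spp1* gave 2 each, those of *Lamb3* overlap, *Itgb7* gave 1 and *Itgb2* had none. The median GC content was 50.3%, 56.7% and 60% in the 3 kinds of window, and its part in these counts was not tested. Gene counts do not show which start was used: 18 of the 27 windows lay within 100 bases of the start of the annotated gene, and that of *Lamb3* lay 94295 bases inside it, where the annotation adds a far upstream exon.

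Of the 9 laminin chains, *Lama2*, *Lama4*, *Lamb1* and *Lamc1* fell, *Lamb3*, an epithelial beta chain, rose from a low level, and the other 4 did not pass. *Lamb3*, whose chain joins that of *Lama3* in the laminin that anchors epithelium through hemidesmosomes, was at 5.72, 3.25, 3.48, 4.89 and 5.18 CPM in controls 1 to 5 and at 52.6, 25.7, 12.6, 23.8 and 61.2 CPM in knockouts 1 to 5. Every knockout was above every control, with knockouts 1 and 5 highest. The gene lies on chromosome 1 (chr1:193207699-193343878, plus strand, 34 merged exons, GRCm38), and its means were 4.50 ± 1.09 CPM and 35.2 ± 20.7 CPM (SD, n = 5 each). It rose 7.81-fold (log2 fold change 2.97, SE 0.40, adjusted p = 0.00187 by edgeR), the largest change of any laminin chain measured, and an exact two-sided permutation test of its level gave p = 0.00794, the smallest that 5 against 5 allows.

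*Lama3*, the alpha chain that joins it, did not pass. It was at 36.6 ± 12.5 CPM in controls and 54.5 ± 14.4 CPM in knockouts (log2 fold change 0.57, adjusted p = 0.132), and it passed only when control 1, its highest control at 57.7 CPM, was left out (0.79, adjusted p = 0.0274). Per kilobase, levels were divided by the merged length of all annotated exons. Transcripts present can be shorter, so such levels of different genes compare only roughly. By this measure *Lamb3* RNA amounted to 0.161 to 0.289 of *Lama3* RNA in controls and 0.361 to 2.19 of it in knockouts. The beta chain thus had less RNA than this alpha chain in every control.

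*Lama2* and *Lama4*, the alpha chains of muscle and mesenchyme and of vessel walls, fell together. *Lama2* (chr10:26980036-27619758, minus strand, 66 merged exons) was at 190, 204, 240, 185 and 206 CPM in controls 1 to 5 and at 64.5, 118, 156, 134 and 84.1 CPM in knockouts 1 to 5. The groups did not overlap, and knockouts 1 and 5, the 2 highest for *Lamb3*, were the 2 lowest for *Lama2*. Its log2 fold change was -0.88 (SE 0.21, adjusted p = 0.0231), a call lost without control 2 (adjusted p = 0.0553) or control 3 (adjusted p = 0.0619). *Lama4* (chr10:38965515-39110188, plus strand) was at 166, 225, 261, 172 and 164 CPM in controls and at 134, 151, 106, 90.8 and 92.7 CPM in knockouts. Again no knockout reached the lowest control, and the log2 fold change was -0.78 (SE 0.18, adjusted p = 0.0200), which held when any single library was left out.

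*Lamb1* and *Lamc1* encode the beta and gamma chains shared by most laminins of the body. *Lamb1* (chr12:31265234-31329644, plus strand) was at 365, 406, 442, 327 and 349 CPM in controls and 263, 294, 283, 279 and 176 CPM in knockouts. Knockout 5 was the lowest, and the groups did not overlap (log2 fold change -0.55, SE 0.14, adjusted p = 0.0350). *Lamc1* (chr1:153218922-153332786, minus strand) was at 417, 547, 620, 414 and 366 CPM in controls and 369, 370, 282, 274 and 256 CPM in knockouts. Control 5 fell just below knockouts 1 and 2, and the log2 fold change was -0.61 (SE 0.17, adjusted p = 0.0411). Both calls were near the threshold: each held in 4 of the 10 fits that leave out 1 library, with adjusted p up to 0.0814 for *Lamb1* (without control 3) and 0.0897 for *Lamc1* (without control 2).

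The remaining chains did not pass. *Lama5*, the alpha chain of the laminins under uterine epithelium and in mature vessels, was at 131, 120, 147, 125 and 98.4 CPM in controls and at 188, 157, 135, 140 and 177 CPM in knockouts. The knockouts overlapped the controls only through control 3 (log2 fold change 0.36, SE 0.12, adjusted p = 0.0902). *Lamb2*, the beta chain of muscle and kidney basement membranes, had a log2 fold change of -0.25 (adjusted p = 0.190). *Lama1*, chiefly an embryonic chain, was the lowest of all members per kilobase, at 0.304 CPM per kb in controls, with a log2 fold change of 0.23 (adjusted p = 0.772) that was -0.29 without knockout 5.

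As shares of laminin RNA, the order of the alpha chains differed between groups, and this order depends on the exon lengths used. Per kilobase of exon, *Lama5* made up 25.0% ± 1.95 of the summed alpha chains in controls and 39.4% ± 6.62 in knockouts (SD, n = 5), and all 5 knockouts were above all 5 controls. *Lama4* took 37.3% ± 4.07 and 26.4% ± 4.06, and *Lama2* 28.9% ± 2.47 and 19.2% ± 6.58, with all 5 knockouts below the controls in each case. By this measure *Lama4* led in controls and *Lama5* in every knockout. In CPM not divided by length, *Lama2* had a higher control mean than *Lama4* (205 against 198 CPM). In knockout 3 *Lama2*, at 156 CPM, was also above *Lama5*, at 135 CPM. Among beta chains, *Lamb1* and *Lamb2* took 52.0% ± 1.88 and 47.1% ± 1.85 in controls, and *Lamb3* 0.954% ± 0.302. In knockouts *Lamb3* took 8.95% ± 5.74, and up to 17.5% in knockout 5. The gamma chain gene *Lamc3*, which is not a member, fell (74.1 ± 17.6 to 28.3 ± 13.7 CPM, log2 fold change -1.39, SE 0.32, adjusted p = 0.0216). These shares follow from levels already given and were not tested again.

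**Figure D2:**
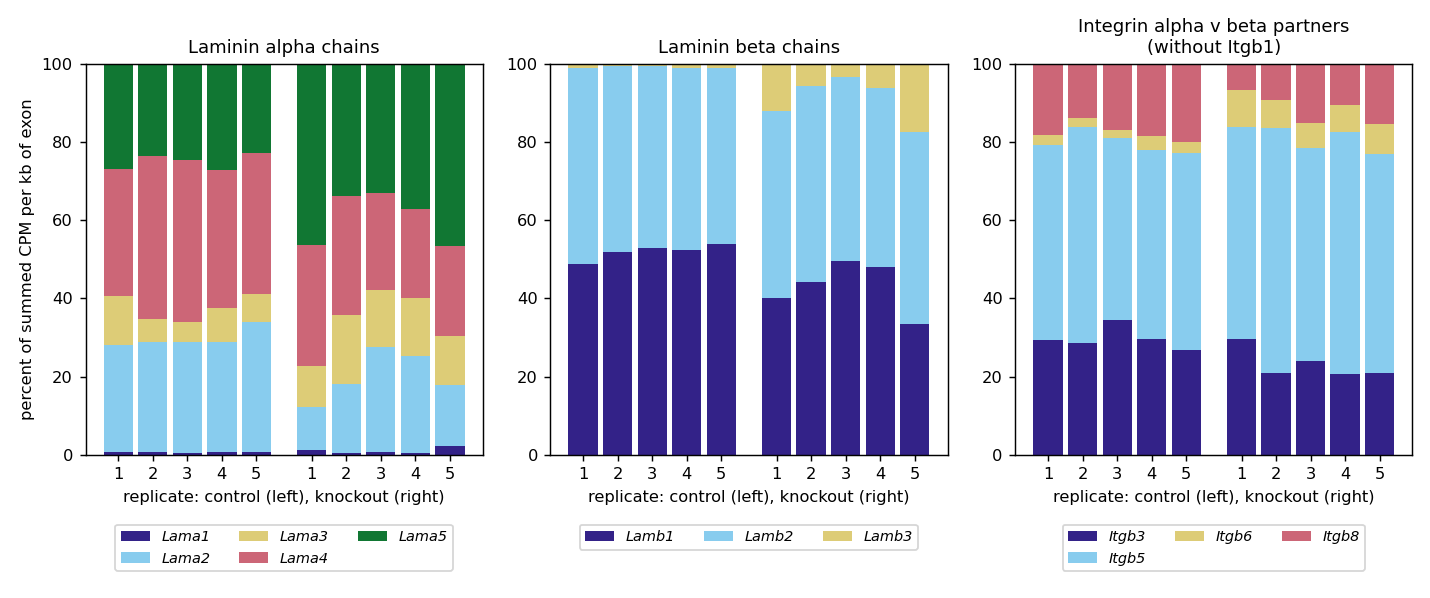
Share of each chain in the summed CPM per kilobase of exon of its family, 1 bar per uterus, controls 1 to 5 on the left and knockouts 1 to 5 on the right of each panel. *Lama5* rose from 22.8 to 27.1% of alpha chains in controls to 33.1 to 46.6% in knockouts, *Lamb3* from at most 1.2% to at least 3.33% of beta chains, and *Itgb6* from at most 3.72% to at least 6.27% of the alpha v partners other than *Itgb1*.

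Between the groups, the direction of the laminin chains ran beside that of the cell markers. All 8 endothelium markers had negative log2 fold changes (median -0.91) and 6 passed, 2 of 10 stroma markers and 1 of 8 myometrium markers fell, and 7 of 10 epithelium markers rose (median 0.84), with none of these markers at 0 in any library. Among all genes tested, 4.51% fell and 5.19% rose. Summed myometrium markers ran from 7294 to 12391 CPM in controls and 3772 to 9899 CPM in knockouts, and stroma markers from 15499 to 22509 CPM and 12906 to 22169 CPM. Single knockouts did not all follow this for *Lama2*. Knockout 1, the lowest at 64.5 CPM, had 22169 CPM of stroma and 8035 CPM of myometrium markers. Knockout 3, the highest knockout at 156 CPM, had 14978 and 5297 CPM. Knockout 5 was low in all 3, at 84.1, 14618 and 3772 CPM. The part of vessel, muscle or epithelial content in the laminin levels was not tested. Measured against the mean of the epithelium markers in the same uterus, *Lamb3* was still higher in knockouts by 1.87 log2 units, with no overlap (exact two-sided permutation p = 0.00794), whereas *Lama5* was lower (difference -0.42, p = 0.0159, exact permutation test) and *Lama3* differed by -0.19 (p = 0.595, exact permutation test). This and the 16 other ratios below were tested singly and their p-values are not adjusted. Of the 17, 10 fell under 0.05: 8 of the 10 ratios to the epithelium markers and 2 of the 7 to *Ptprc*. Ratios to the same reference are not independent. Because most epithelium markers rose, a gene whose own level stayed the same has a lower ratio to them in knockouts.

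Of 15 genes whose products share the basement membrane with the laminins, 5 fell, 1 rose and 9 did not pass, with a median log2 fold change of -0.63. The 6 calls were 40% of this list, beside 9.70% of all genes tested. Those that fell were the nidogens *Nid1* and *Nid2*, which bridge laminin to collagen IV, the collagen IV chains *Col4a1* (-0.95, adjusted p = 0.0156) and *Col4a2*, and *Col18a1*. The gene that rose was *Col7a1* (0.82, adjusted p = 0.0200), which forms the fibrils that tie epithelial basement membrane to stroma. Of 7 genes for other laminin receptors and hemidesmosome proteins 0 passed by edgeR, with 1 at an unadjusted p under 0.05 and 1 called by DESeq2. These genes are named after their values were seen, and the lists were chosen with results of these data known.

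*Spp1*, the soluble ligand of the set, showed the widest spread. Osteopontin is a phosphoprotein with an RGD motif that binds alpha v integrins, made by epithelium and by macrophages among other cells. *Spp1* (chr5:104435118-104441050, plus strand, 8 merged exons) was at 11.4, 5.52, 5.86, 5.37 and 11.8 CPM in controls and at 189, 25.5, 20.8, 46.7 and 533 CPM in knockouts. On the same strand, 18.8% of its exon length is shared with a gene that had at most 48 counts in any library. All knockouts were above all controls, but knockout 5 exceeded knockout 3 by far, and the means were 7.99 ± 3.31 and 163 ± 218 CPM. The log2 fold change was 4.35 (SE 0.89, adjusted p = 0.0132 by edgeR). It was 3.14 without knockout 5 (adjusted p = 0.0115) and 1.96 without knockouts 1 and 5 (adjusted p = 0.00478), a fit added after the data were seen. In knockout 5 summed macrophage markers were also highest, at 892 CPM against 253 to 482 CPM in the other libraries, beside the neutrophil markers given above, and their part in the *Spp1* level of that uterus was not tested. The other knockouts had 13.2 to 23.8 CPM of neutrophil markers, within the control range, and 359 to 482 CPM of macrophage markers.

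Of 17 other integrin ligands, 7 fell and 1 rose (median log2 fold change -0.28), which is 47.1% of the list beside 9.70% of all genes tested. The largest falls were those of *Ccn3* (29.3 ± 14.7 to 5.62 ± 2.30 CPM, log2 fold change -2.38, SE 0.39, adjusted p = 0.00487) and *Ccn2* (78.4 ± 17.1 to 31.7 ± 15.6 CPM, -1.31, SE 0.27, adjusted p = 0.0146), secreted matricellular proteins of the same family. Fibronectin, *Fn1*, the main ligand of the receptor that *Itga5* and *Itgb1* form, fell as well (-0.70, adjusted p = 0.0132, named after its value was seen). The ligand that rose, E-cadherin (*Cdh1*), is bound by the *Itgae* product on lymphocytes and is also among the epithelium markers.

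Among the 6 epithelial integrins, *Itgb6* alone passed. Its chain pairs with alpha v on epithelium, where the receptor binds fibronectin and activates latent TGF-beta. *Itgb6* (chr2:60598292-60722643, minus strand, 20 merged exons) was at 7.27, 7.30, 6.53, 10.9 and 8.80 CPM in controls 1 to 5 and at 32.7, 20.1, 17.7, 20.4 and 31.7 CPM in knockouts 1 to 5. The groups did not overlap, and knockouts 1 and 5 were the highest here too. The mean went from 8.16 ± 1.74 to 24.5 ± 7.09 CPM, a 3.00-fold rise (log2 fold change 1.59, SE 0.21, adjusted p = 0.00182). The log2 fold change stayed between 1.46 and 1.71 when any single library was left out.

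Between the groups, the laminin-binding pair of the epithelium did not rise as the epithelium markers did. *Itga6*, the alpha chain that pairs with the *Itgb4* product in hemidesmosomes and with the *Itgb1* product elsewhere, was at 204, 177, 231, 189 and 183 CPM in controls and 278, 179, 157, 169 and 270 CPM in knockouts. Knockouts 1 and 5 were above all controls and knockouts 3 and 4 below them (log2 fold change 0.10, SE 0.17, adjusted p = 0.773). Summed epithelium markers were also highest in knockouts 1 and 5, at 2636 and 1822 CPM. The part of other cell types in the *Itga6* level was not tested. *Itgb4* was at 45.2 ± 6.24 and 34.9 ± 4.80 CPM (log2 fold change -0.37, adjusted p = 0.0734 by edgeR and 0.0418 by DESeq2), and it passed by edgeR without control 5 (adjusted p = 0.0368) or knockout 1 (0.0289). Relative to the epithelium markers, *Itgb4* was lower in knockouts (log2 difference -1.15) and so was *Itga6* (-0.72), each with exact permutation p = 0.00794 and no overlap. *Itgb6* was higher by 0.72 relative to the same markers (exact permutation p = 0.00794).

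*Itgb8*, the other alpha v partner that activates TGF-beta, was at 83.4 ± 11.1 CPM in controls and 57.6 ± 24.8 CPM in knockouts (log2 fold change -0.53, adjusted p = 0.185). Knockout 5 had 96.5 CPM and the other knockouts 35.7 to 66.8 CPM, all of these below the lowest control, and without knockout 5 the gene passed (-0.80, adjusted p = 0.0188). Per kilobase, *Itgb6* RNA was 0.122 to 0.202 of *Itgb8* RNA in controls and 0.412 to 1.42 of it in knockouts. *Itga3*, a laminin receptor chain, had a log2 fold change of 0.27 (adjusted p = 0.240). *Itga2*, a collagen receptor chain, lay between 3.36 and 4.46 CPM in knockouts 2 to 4, at 14.0 CPM in knockout 1 and at 47.6 CPM in knockout 5, against 4.22 to 8.48 CPM in controls. Its log2 fold change of 1.38 (adjusted p = 0.227) was 0.19 without knockout 5.

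**Figure D3:**
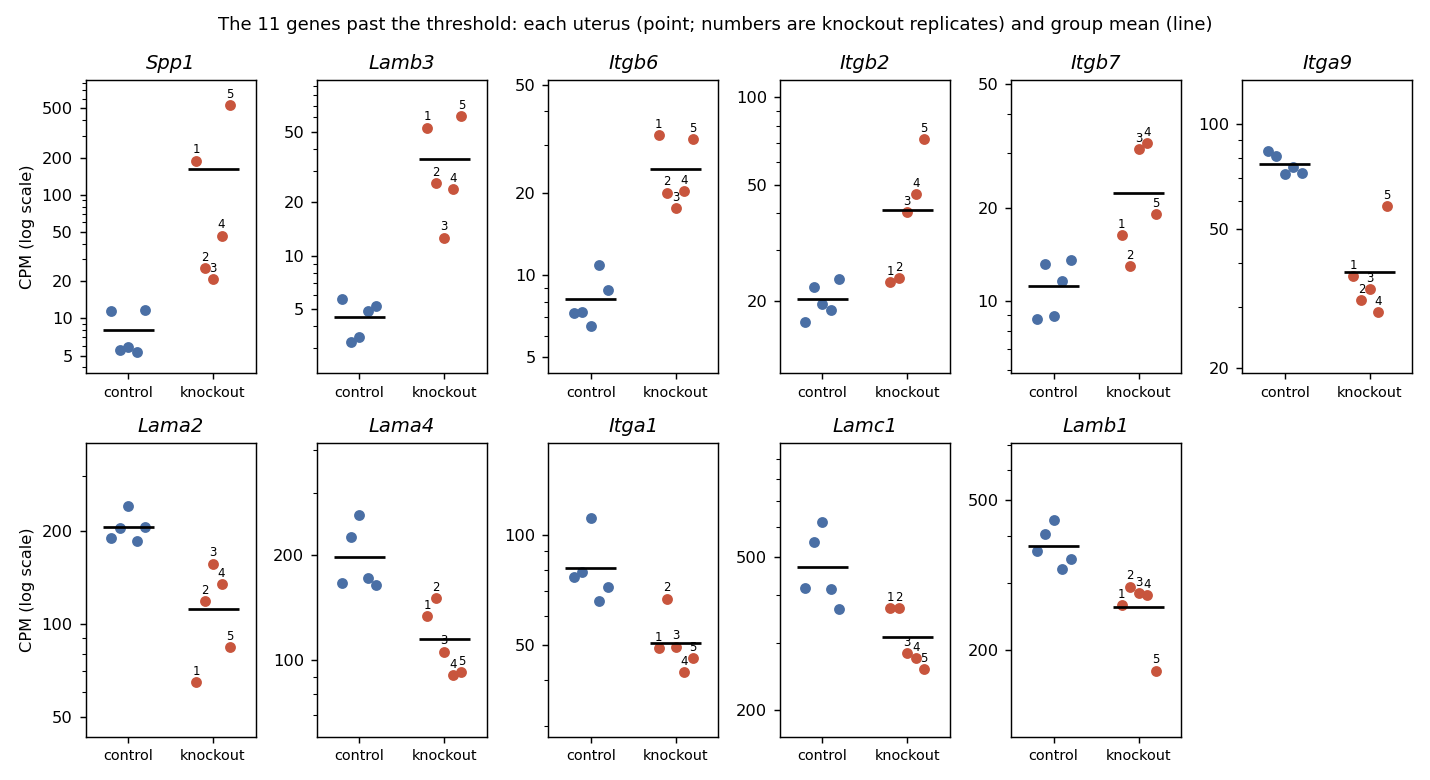
CPM (log scale) in each uterus for the 11 genes that passed, controls in blue and knockouts in red with their replicate numbers, lines at group means. Knockouts 1 and 5 were highest for *Spp1*, *Lamb3* and *Itgb6*, while knockouts 3, 4 and 5 were highest for *Itgb2* and knockouts 3 and 4 for *Itgb7*.

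Of the 11 integrins of stroma, muscle and vessels, *Itga9* and *Itga1* fell and the other 9 did not pass. *Itga9* encodes a receptor chain for tenascin and osteopontin that is also needed for lymphatic valves. It was at 83.5, 80.7, 72.0, 75.2 and 72.1 CPM in controls and at 36.6, 31.3, 33.6, 29.0 and 58.1 CPM in knockouts (chr9:118606690-118901003, plus strand). Controls were close together, and only knockout 5 came near them. The log2 fold change was -1.02 (SE 0.17, adjusted p = 0.00503), and it ran from -1.23 to -0.94 with any single library left out. *Itga1* (chr13:114953096-115101964, minus strand), a collagen receptor chain of smooth muscle and fibroblasts, was at 76.7, 79.0, 111, 65.9 and 72.1 CPM in controls and at 49.0, 66.9, 49.5, 42.1 and 46.1 CPM in knockouts. The groups overlapped through knockout 2 and control 4 alone (log2 fold change -0.68, SE 0.16, adjusted p = 0.0220).

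*Itgb1*, the common beta chain of most matrix receptors, had the highest level of the 34 genes, at 199.8 CPM per kb in controls. It was at 744, 918, 937, 759 and 717 CPM in controls and 718, 759, 583, 550 and 667 CPM in knockouts, and the groups overlapped (log2 fold change -0.32, 95% interval -0.59 to -0.04, SE 0.12, adjusted p = 0.132). *Itgav*, which pairs with 5 beta chains, was at 120, 119, 134, 114 and 118 CPM in controls and 146, 121, 109, 96.9 and 219 CPM in knockouts. Knockout 5 was the highest and knockout 4 the lowest of all 10 (log2 fold change 0.20, 95% interval -0.22 to 0.61, adjusted p = 0.568). *Itgb3*, which with alpha v forms a receptor for osteopontin and vitronectin, was at 71.4, 74.3, 90.8, 72.3 and 70.9 CPM in controls and 84.5, 48.2, 56.3, 50.8 and 70.5 CPM in knockouts (-0.29, 95% interval -0.62 to 0.04, adjusted p = 0.250). Knockout 1 lay within the controls, whereas the other 4 lay below them.

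Among these beta partners of alpha v, *Itgb1* took 82.1% ± 1.67 of the summed CPM per kb in controls and 78.0% ± 3.11 in knockouts, *Itgb5* 8.95% ± 0.960 and 12.7% ± 1.71, and *Itgb6* 0.482% ± 0.138 and 1.66% ± 0.366. All 5 knockouts were above all controls for *Itgb5* and *Itgb6*. *Itgb5* itself, a vitronectin receptor chain, had a log2 fold change of 0.27 (adjusted p = 0.125). *Itgb6* thus remained the scarcest of the 5 partners in the mean of either group, even after its rise.

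The other 5 genes of this kind ran from -0.42 to 0.12 in log2 fold change. The fibronectin receptor chain *Itga5* had -0.28 (adjusted p = 0.346), the muscle laminin receptor chain *Itga7* -0.29 (adjusted p = 0.336) and the collagen receptor chain *Itga10* 0.12 (adjusted p = 0.699), and 33.5% of the *Itga10* exon length is shared with an overlapping annotated gene, so its reads are uncertain. Knockout 5 decided 2 others. *Itga8*, a receptor chain for nephronectin, was at 26.5 to 36.7 CPM in controls, 11.2 to 19.5 CPM in knockouts 1 to 4 and 66.1 CPM in knockout 5, so that its log2 fold change of -0.27 (adjusted p = 0.747) was -1.01 without that uterus (adjusted p = 0.00464). *Itga11*, a fibroblast collagen receptor chain, was at 2.06 to 3.48 CPM in knockouts 1 to 4 and 6.12 CPM in knockout 5, and its log2 fold change of -0.42 (adjusted p = 0.441) was -0.80 without it (adjusted p = 0.0496).

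Inside the cell, 24 genes for proteins that link integrins to actin gave 1 rise and 3 falls (median log2 fold change -0.23). The 4 calls were 16.7% of this list, beside 9.70% of all genes tested, of which 5.19% rose and 4.51% fell. The gene that rose, *Fermt1*, encodes kindlin-1, the epithelial member of a family that activates integrins through their beta tails (53.9 ± 10.9 to 123 ± 32.9 CPM, log2 fold change 1.184, SE 0.19, adjusted p = 0.00469). Those that fell were *Parvb*, *Lims2* and *Tns2*, named after their values were seen.

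The leukocyte integrins moved upward as far as they passed, *Itgb2* and *Itgb7* of 7. *Itgb2* (chr10:77530252-77565708, plus strand) encodes CD18, the common beta chain of the receptors by which neutrophils, macrophages and lymphocytes stick to endothelium. It was at 16.9, 22.3, 19.5, 18.6 and 23.8 CPM in controls and at 23.2, 24.0, 40.4, 46.5 and 71.9 CPM in knockouts. Knockouts 1 and 2 lay at the level of the highest control and knockouts 3 to 5 well above it (log2 fold change 1.03, SE 0.28, adjusted p = 0.0404). *Itgb7* (chr15:102215995-102231944, minus strand), whose product pairs with those of *Itga4* and *Itgae* on lymphocytes of mucosal tissues, was at 8.77, 13.1, 8.95, 11.6 and 13.6 CPM in controls and at 16.4, 13.0, 30.9, 32.4 and 19.1 CPM in knockouts. Knockout 2 lay among the controls (log2 fold change 0.99, SE 0.26, adjusted p = 0.0330). Neither call was secure: *Itgb2* passed in 2 of the 10 fits that leave out 1 library (adjusted p 0.0213 to 0.0937; lost without any single control, or without knockout 3, 4 or 5) and *Itgb7* in 3 (0.0152 to 0.0878; lost without any single control, or without knockout 3 or 4).

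The alpha partners of CD18 did not pass by edgeR. *Itgal*, the alpha chain of LFA-1 on lymphocytes, was at 19.3 ± 2.69 and 35.6 ± 14.8 CPM (log2 fold change 0.88, adjusted p = 0.0572), and *Itgax*, the CD11c chain of dendritic cells and some macrophages, at 12 ± 3.20 and 21.1 ± 7.92 CPM (0.81, adjusted p = 0.0708). DESeq2 gave adjusted p = 0.0134 for *Itgal* and 0.0219 for *Itgax*. By edgeR *Itgal* passed without knockout 1 (adjusted p = 0.0301) or knockout 2 (0.0205), and *Itgax* without knockout 2 (0.0437). *Itgam*, the CD11b chain of neutrophils and macrophages, was at 11.9, 24.5, 26.4, 18.0 and 24.9 CPM in controls and at 27.5, 22.0, 20.5, 28.8 and 105 CPM in knockouts. Only knockout 5, the uterus with 873 CPM of neutrophil markers, stood apart, and the log2 fold change of 0.95 (SE 0.44, adjusted p = 0.200) was 0.23 without it (adjusted p = 0.561). In the annotation used here, 68.7% of the *Itgam* exon length is shared with a gene on the same strand. No counts are given for that gene, so whether the overlap affected the *Itgam* level is uncertain. *Itgae*, the CD103 chain that binds E-cadherin, was at 4.94, 4.22, 3.92, 6.31 and 7.29 CPM in controls and at 6.38, 6.88, 6.08, 10.04 and 7.48 CPM in knockouts, so the groups overlapped (0.47, SE 0.21, adjusted p = 0.188).

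*Itga4*, the chain of the VCAM-1 receptor, differed in sign from the other 6 leukocyte integrins. It was at 35.2, 35.4, 56.7, 43.1 and 46.1 CPM in controls and at 28.1, 26.1, 32.6, 31.4 and 52.1 CPM in knockouts, the first 4 of these being below every control. The log2 fold change was -0.35 (adjusted p = 0.296), and it was -0.55 without knockout 5 (adjusted p = 0.0392). *Itga4* is not restricted to leukocytes, being found on stromal and vascular cells as well.

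Leukocyte markers moved with these genes. Of 5 markers common to white cells 3 rose, beside 5.19% of all genes tested. These 5 markers summed to 140 to 231 CPM in controls and 182 to 416 CPM in knockouts. Of 7 T cell markers 3 rose, and their sum was 24.8 to 33.5 CPM in controls, 85.5 and 84.8 CPM in knockouts 3 and 4, and 39.2 to 50.7 CPM in the other knockouts. Macrophage markers gave 0 of 10 calls by edgeR (4 at an unadjusted p under 0.05, 2 by DESeq2), natural killer cell markers 0 of 7 (0 unadjusted, 0 by DESeq2) and dendritic cell markers 1 of 7, a fall, although 6 of these 7 had positive log2 fold changes (median 0.65; 3 at an unadjusted p under 0.05, 2 by DESeq2). Knockouts 3 and 4 were thus the highest both for T cell markers and for *Itgb7*, and the part of white cell content in these integrins was not tested beyond the ratios that follow.

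Relative to *Ptprc*, the CD45 gene of all white cells, in the same uterus, *Itgb2* was higher in knockouts by 0.39 log2 units (exact two-sided permutation p = 0.0317) and *Itga4* was lower (difference -0.87, exact permutation p = 0.00794), with every knockout below every control. For *Itgb7* the difference was 0.39 (p = 0.143, exact permutation test), for *Itgal* 0.26 (p = 0.0794), for *Itgax* 0.25 (p = 0.286), for *Itgam* 0.17 (p = 0.659) and for *Itgae* -0.06 (p = 0.810). The groups overlapped in these 5 and in *Itgb2*, where 2 of 5 knockouts lay above all controls. *Ptprc* itself did not pass (log2 fold change 0.56, adjusted p = 0.149 by edgeR). Knockouts 1 and 2 had 68.3 and 70.7 CPM of it, within the control range of 59.7 to 98.7 CPM. Where *Ptprc* was higher, a gene whose own level stayed the same has a lower ratio to it.

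**Figure D4:**
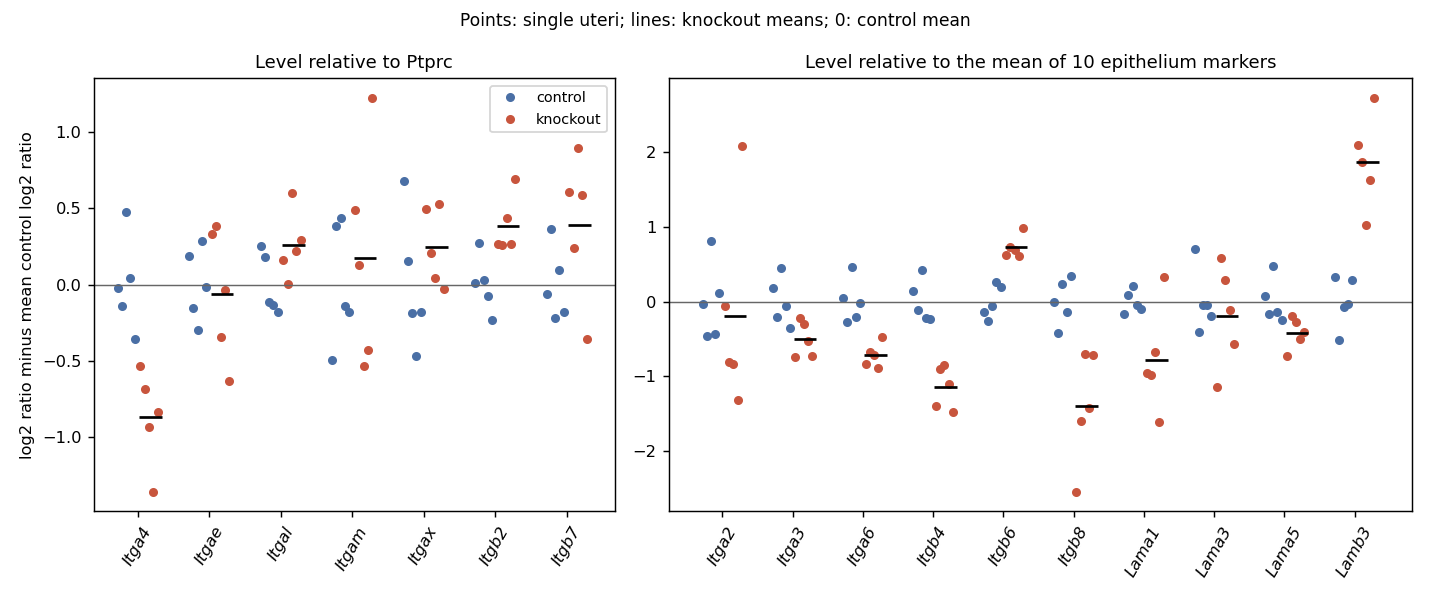
Log2 ratio of a gene to a reference in each uterus, minus the mean control ratio, for 7 leukocyte integrins relative to *Ptprc* (left) and 10 epithelial genes relative to the mean of the epithelium markers (right), with lines at knockout means. The knockout mean of *Itga4* was -0.87 relative to *Ptprc*, and relative to epithelium those of *Lamb3* and *Itgb6* were 1.87 and 0.72, while those of *Itgb4* and *Itgb8* were -1.15 and -1.40.

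For the remaining epithelial genes, the difference relative to the epithelium markers was -1.40 for *Itgb8* (exact permutation p = 0.00794), -0.51 for *Itga3* (p = 0.0317, exact permutation test), -0.78 for *Lama1* (p = 0.0476, exact permutation test) and -0.19 for *Itga2* (p = 0.786, exact permutation test). The ratio of *Lama1* missed 0.05 without any single library other than knockout 5, with exact permutation p up to 0.103, and that of *Itga3* without control 3 or knockout 1, 4 or 5, with p up to 0.0714. *Itgb6* and *Lamb3* were thus the members of this kind whose ratio to epithelium rose. They were the epithelial members that passed the test on their own level, which is part of the ratio, so ratio and level are not independent results.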

How the data were processed

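Poly(A) RNA of whole uterine tissue was sequenced as 50 bp read pairs. The authors trimmed reads (Trim Galore 0.6.4, cutadapt 1.18), aligned them to GRCm38 with STAR 2.7.3a and deposited whole-number counts per gene as STAR gives them. The strand setting and the annotation release are not given in the sources used here, so how overlaps between genes affected their counts is uncertain. Of the 45706 identifiers, 45143 were found in GENCODE M21, which gave symbols, coordinates and merged exon lengths, and 3 listed partner genes were matched by a RefSeq synonym.

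Counts were fitted with edgeR 4.0.16 (R 4.3.3; TMM scaling, glmQLFit and glmQLFTest, genotype the only term) over the 25146 genes that averaged 1 count or more per library. P-values were adjusted by Benjamini-Hochberg over all of them with a threshold of 0.05. CPM used TMM library sizes, and CPM per kb is CPM divided by merged exon length, which can exceed that of the transcripts present. Single levels and ratios were tested by two-sided exact permutation of log2(CPM + 0.5) over 252 arrangements. At these depths counting error is small beside the spread between uteri. Littermates were compared where possible, per the study's methods, but which uteri shared a litter is not given in the sources used here. DESeq2 1.42.0, other filters, a replicate block and leaving out libraries were tried. The fits were tested on simulated data.

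All 34 members are named. Values in every uterus are given for members that passed and for *Itgb1*, *Itgav*, *Itgb3*, *Itgam*, *Itgb2*, *Itgae*, *Itga6*, *Lama5*, *Lamc1* and *Spp1*. *Itga4* and *Itga2* were added after their values were seen. Partner genes could be named where they passed with a log2 fold change of at least 1 in size. The members, lists and tests were chosen with earlier results of these data known.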

Additional observations from a re-analysis of the deposited data

Results flagged for a closer look

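In 68 groups of 5 uteri (34 genes in either group), 9 held a uterus far from the other 4, its gap to the nearest exceeding 0.710 of the group's range, and a share of about 5% of groups would be flagged by chance. Knockout 5 accounted for 6 of the 9: it was the highest knockout for *Itga2* (47.6 CPM), *Itga8* (66.1 CPM), *Itga9* (58.1 CPM), *Itga4* (52.1 CPM) and *Itgam* (105 CPM), and the lowest for *Lamb1* (176 CPM). Control 3 was the highest control for *Itga1* (111 CPM) and *Itgb3* (90.8 CPM), and knockout 2 was the highest knockout for *Itga5* (151 CPM). Of these genes *Itga9*, *Itga1* and *Lamb1* passed the test. *Itga9* and *Itga1* passed also without the uterus named here, and so did *Lamb1*.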

How the results depend on the processing

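*Itga9*, *Itgb6*, *Lama4*, *Lamb3* and *Spp1* passed in all 16 alternatives tried. *Itga1* passed in 15, *Lama2* in 14, *Lamb1* in 10, *Lamc1* in 9, and *Itgb2* and *Itgb7* in 8 each. Members called higher and lower numbered 5 and 6 by edgeR and 7 and 7 by DESeq2, which called 4062 of all genes in place of 2438. Leaving out 1 library at a time gave 3 to 7 members higher and 3 to 9 lower, 2 to 5 partner genes higher and 9 to 19 lower, and 1204 to 2381 genes in all, fewest without control 2. Without knockouts 1 and 5 together, a setting added after seeing the data, 6 members were higher and 9 lower. Direction changed for 4 genes that had not passed: *Itga2* (-0.53 without knockouts 1 and 5), *Itga6* (-0.028 to 0.19 over the fits without 1 library, negative without knockout 1 or 5, and -0.23 without both), *Itgav* (-0.031 to 0.30, negative without knockout 5, and -0.15 without knockouts 1 and 5) and *Lama1* (-0.29 to 0.44, negative without knockout 5, and -0.64 without knockouts 1 and 5). Among ratios it changed when 1 uterus was left out for *Itgae* to *Ptprc* (-0.17 to 0.084, positive without control 4, knockout 3 or knockout 5), for *Itgam* to *Ptprc* (-0.088 to 0.35, negative without knockout 5), and, to the epithelium markers, for *Itga2* (-0.76 to 0.091, positive without control 3 or knockout 4) and *Lama3* (-0.39 to 0.044, positive without knockout 1). The cause was not tested.

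Replicate numbers are shared by the groups, but same-numbered uteri did not deviate together (correlations from -0.16 to 0.18 in 5 pairs), so the numbers were not taken as pairs. With the replicate block 4 members were higher and 6 lower, 1704 genes passed in all, *Itgb7* missed the threshold (adjusted p = 0.0769) and *Lama1* turned to -0.044.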
